A study of Danio rerio with 25 samples.

Results

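Genes of macrophages, neutrophils and their cytokines were examined in whole zebrafish larvae that carry a mutation in *dmd*, the gene for dystrophin, and in their wild-type (WT) siblings, with and without neuromuscular electrical stimulation (NMES). The genes were given as a list of 36 names. A gene in the files belonged to the list when its identifier carries one of these names in the reference. Case and a missing a or b letter were ignored. The name *mpeg1.1* was matched to *MPEG1* through a listed synonym, and *mpeg1.2* by leaving off its final number. In all, 34 names found an entry, and these led to 44 of the 32520 gene identifiers in the files. The names *mpx* and *cxcr2* matched no symbol in the reference, and no identifier was counted under them. A granulocyte peroxidase gene, ENSDARG00000019521, is listed as *EPX*, and whether it is the gene called *mpx* in zebrafish was not settled, so it is not among the 44 and its values are given apart. A separate identifier, ENSDARG00000012535, is also listed as *epx*. The counts of neutrophil genes below leave both out. Several names could not be traced to a single identifier: 3 identifiers are listed as *MPEG1*, 8 as *MFAP4*, 2 as *CXCR4* and 2 as *CXCR1*, so these are reported by identifier. Of the 44 genes, 42 had at least 10 counts summed over all libraries and were tested. The exceptions were *MPEG1* ENSDARG00000078569 with 4 counts and *MFAP4* ENSDARG00000111491 with 3 counts.

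All larvae came from the sapje ta222a line, which lacks functional dystrophin when homozygous, and RNA was taken at 7 days post fertilization (dpf). Mutants were told from siblings by birefringence, an optical measure of muscle order, which does not separate heterozygous carriers from WT larvae. The trained groups had completed the endurance program (eNMES), short pulse trains of high frequency and low voltage, at 2, 3 and 4 dpf, so RNA was taken 3 days after the last session. Larvae were anaesthetized with tricaine before a session. The 4 groups were WT sibling controls (4 libraries), WT siblings with eNMES (3 libraries), *dmd* mutant controls (8 libraries) and *dmd* mutants with eNMES (9 libraries, replicates 2 to 10; replicate 1 was not analysed here). Each library held polyA+ RNA of 2 whole larvae, and before extraction the larvae had been grouped within each treatment by severity at onset and by the later change in birefringence. A library is therefore a pool of all tissues of a pair of larvae chosen to be alike.

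Macrophages and neutrophils are the phagocytes that carry the innate immune response of a zebrafish larva, which at this age has few mature lymphocytes. Both arise from progenitors that depend on the transcription factor PU.1, and they enter damaged muscle to clear debris. Neutrophils release granule enzymes and make superoxide with the NADPH oxidase, while macrophages take up dead cells, secrete complement C1q and signal through the receptor for Csf1 and Il34. In dystrophic muscle, fibers tear and degenerate, and immune cells gather at the lesions. Because each library is a whole larva pool, more cells of a type and more RNA per cell cannot be told apart in any value that follows.

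The files gave between 7957155 and 22808312 estimated counts per library, and all libraries but *dmd* eNMES 8, the lowest, had at least 17242157. The mutated gene itself separated the genotypes: *dmd* had 2586 to 5391 normalized counts in WT libraries and 1007 to 1434 in mutant libraries. Here and throughout, a normalized count is an estimated count rescaled as if its library had the average depth. A gene was called when edgeR gave a Benjamini-Hochberg adjusted p under 0.1 over all genes tested and the absolute log2 fold change was over 0.6. A further division ran through the libraries: the leading component of 34 clock genes was positive in all 4 WT controls, negative in all 3 WT eNMES libraries, negative in *dmd* controls 1 to 5 and *dmd* eNMES 2 to 6, and positive in the other mutant libraries.

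Levels were compared between genes in TPM, RSEM's transcript abundance corrected for gene length and depth. The 4 genes with the highest mean over all 24 libraries were *lyz*, *cebpb*, *MPEG1* ENSDARG00000043093 and *MFAP4* ENSDARG00000090557, in an order that differed between groups. The neutrophil lysozyme gene *lyz* had 53.0 ± 6.43 TPM in WT controls (SD, n = 4), 63.4 ± 13.2 in WT eNMES (n = 3), 77.2 ± 13.5 in *dmd* controls (n = 8) and 74.4 ± 18.8 in *dmd* eNMES libraries (n = 9). *cebpb*, a C/EBP transcription factor that is also active outside leukocytes, had 79.0 ± 31.3, 43.7 ± 9.49, 54.9 ± 35.2 and 44.8 ± 12.1 TPM in the same order, and *MPEG1* ENSDARG00000043093, which encodes a pore-forming protein of macrophages, 31.4 ± 8.95, 51.7 ± 21.8, 29.6 ± 11.7 and 40.1 ± 10.0 TPM. *MFAP4* ENSDARG00000090557 had 54.2 ± 23.4, 22.7 ± 19.0, 19.9 ± 28.7 and 42.2 ± 27.8 TPM. By its mean *lyz* was thus highest in every group but WT controls, where *cebpb* and *MFAP4* ENSDARG00000090557 lay above it by less than their own SDs. Among the receptors, *csf1ra*, the Csf1 receptor that pigment cells also use, had a mean of 12.5 TPM, *csf3r*, the receptor for the neutrophil growth factor Csf3, 3.91 TPM, and the chemokine receptor gene *ccr2* 0.323 TPM. The C1q genes lay low, between 0.623 TPM for *c1qa* and 2.01 TPM for *c1qc*. The inflammatory cytokine *tnfa* (0.336 TPM) and the anti-inflammatory cytokine *il10* (0.48 TPM) had only 90 and 55 counts over all libraries together, and the standard errors of their log2 fold changes between the control groups were 0.863 and 0.712.

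**Figure D1:**
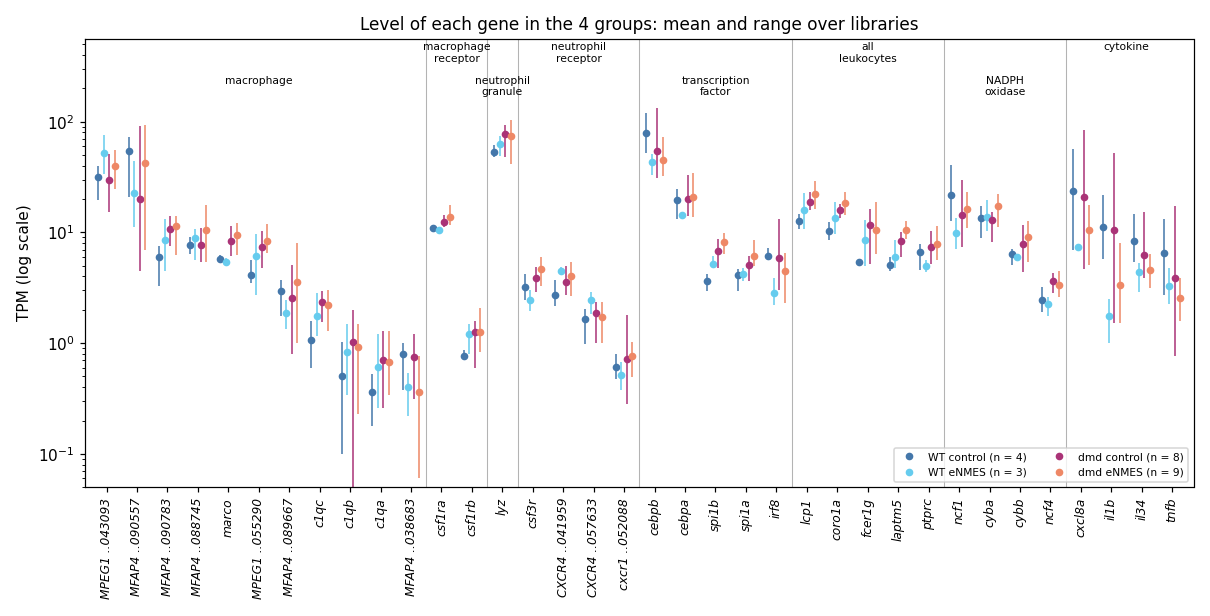
Mean level in TPM on a log scale (points) and range over libraries (lines) of each gene with a mean of at least 0.5 TPM, by role and group; identifiers are shortened to their last digits and ranges that reach 0 are cut at the axis. The widest ranges belong to *MFAP4* ENSDARG00000090557, *c1qb* and the cytokines *il1b*, *tnfb* and *cxcl8a*, and *lyz* has the highest mean in 3 of the 4 groups.

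The comparison of *dmd* mutant controls with WT sibling controls asked which phagocyte genes differ in untrained dystrophic larvae. Of the 42 genes tested, 9 were called higher in *dmd* controls and 0 lower, against 2.43% of all 25832 genes called higher and 0.693% called lower. The list was chosen with earlier results of these data known, so its shares and medians here and below are not an independent check. The 9 were *MPEG1* ENSDARG00000055290, *MFAP4* ENSDARG00000090783, *c1qc* and *csf1rb*, all listed as macrophage genes, the PU.1 gene *spi1b*, and the leukocyte genes *lcp1*, *coro1a*, *laptm5* and *fcer1g*. By role, 3 of 13 macrophage markers and 1 of 3 macrophage receptors were called. So were 1 of 5 transcription factors and 4 of 5 genes listed for all leukocytes. The 13 markers include every tested *MFAP4* identifier, and which of these marks macrophages was not settled. Of 6 neutrophil genes (*lyz* and 5 receptor genes), 4 oxidase genes and 6 cytokines, 0 were called. At 2.43% of all genes, few calls would fall among so few genes. Their absence thus does not set these roles apart from the macrophage genes. The median log2 fold change of the 42 genes was 0.30, beside 0.01 for all genes. At an unadjusted p under 0.05 there were 17 of the 42, all higher, beside 12.3% of all genes, and 27 of the 42 had a log2 fold change above 0, beside 51.6% of all genes. In 4 of the 42 genes every mutant control lay above every WT control, beside 3.05% of all genes.

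The macrophage markers that rose did so by different amounts. *c1qc*, a chain of complement C1q, had 13.7, 5.18, 10.2 and 7.98 normalized counts in WT controls and ran from 13.5 over a median of 22.1 to 24.6 in *dmd* controls. Only the lowest of the 8 mutant libraries fell inside the WT range. The log2 fold change was 1.13 ± 0.281 (SE, adjusted p = 0.0166). Its partner chains *c1qa* (8.30 ± 4.04 against 4.23 ± 1.70 normalized counts) and *c1qb* (9.09 ± 5.50 against 4.52 ± 3.88) were not called, with adjusted p-values of 0.243 and 0.331. *MPEG1* ENSDARG00000055290 had 121, 125, 123 and 190 normalized counts in WT controls and a range of 171 to 347, median 264, in *dmd* controls. Here 7 of 8 mutant libraries exceeded the highest WT library, and the log2 fold change was 0.87 ± 0.235 (adjusted p = 0.0294). The more abundant *MPEG1* ENSDARG00000043093 had 1066 ± 293 normalized counts in WT controls and 1027 ± 399 in *dmd* controls, a log2 fold change of -0.05 ± 0.283 (adjusted p = 0.936). How RSEM shared reads among these like genes cannot be seen in the files, and whether each value stands for a single *mpeg1* gene was not tested.

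The genes listed as *MFAP4*, one of which is a common macrophage marker in zebrafish, also went apart. *MFAP4* ENSDARG00000090783 had 52.0, 66.4, 30.6 and 63.0 normalized counts in WT controls and 63.1 to 122, median 89.1, in *dmd* controls (log2 fold change 0.76 ± 0.258, adjusted p = 0.0778). The lowest mutant libraries overlapped the highest WT libraries. *MFAP4* ENSDARG00000090557 had 1132, 1177, 950 and 343 normalized counts in WT controls, whereas 7 of 8 *dmd* controls lay between 72.7 and 240 and *dmd* control 1 had 1555. The log2 fold change was -1.40 ± 0.697 (adjusted p = 0.248) with that library and -2.44 (adjusted p = 0.0106) without it. The other *MFAP4* identifiers that were tested were not called.

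Of the receptor genes of macrophages, *csf1rb* was called. *csf1rb*, one of a pair of genes for the Csf1 receptor, had 26.5, 25.9, 32.7 and 27.5 normalized counts in WT controls and 23.5 to 61.9, median 50.9, in *dmd* controls. *dmd* control 1 was the lowest of all 12 libraries, and 6 mutant libraries exceeded every WT control (log2 fold change 0.74 ± 0.232, adjusted p = 0.0573). *csf1ra* had 486, 508, 510 and 533 normalized counts in WT controls and 534 to 673, median 582, in *dmd* controls, so the groups did not overlap. Its log2 fold change of 0.23 ± 0.0803 (adjusted p = 0.0838) was under the fold threshold. *marco*, a scavenger receptor of macrophages, had 120, 135, 123 and 120 normalized counts against 133 to 266, median 180, and reached a log2 fold change of 0.60 ± 0.182 (adjusted p = 0.0509) that fell just short of the fold threshold. Only *dmd* control 4 was within the WT range of *marco*.

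Of the 5 genes listed for all leukocytes, 4 were called higher. *coro1a*, which encodes an actin-binding protein of leukocytes, had 209, 231, 193 and 269 normalized counts in WT controls and 307 to 404, median 348, in *dmd* controls. *lcp1*, the actin-bundling L-plastin, had 325, 415, 321 and 414 against 470 to 694, median 550. In both genes the lowest mutant library exceeded the highest WT library, with log2 fold changes of 0.63 ± 0.130 (adjusted p = 0.00406) and 0.60 ± 0.162 (adjusted p = 0.0290). The call of *lcp1* sat at the fold threshold and was made in 20 of 36 settings. *laptm5*, a lysosomal membrane protein of blood cells, had 36.5, 35.3, 48.0 and 42.6 in WT controls and 47.9 to 81.2, median 67.8, in *dmd* controls (log2 fold change 0.70 ± 0.164, adjusted p = 0.0112). *fcer1g*, a signalling chain of Fc receptors, had 14.6, 13.5, 12.3 and 13.3 in WT controls, whereas 7 *dmd* controls had 26.7 to 34.8 and *dmd* control 1 had 11.7 (log2 fold change 1.05 ± 0.290, adjusted p = 0.0306). *ptprc*, the leukocyte phosphatase CD45, was at 228 ± 25.2 against 274 ± 34.9 and was not called (log2 fold change 0.27 ± 0.119, adjusted p = 0.189).

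Among the transcription factors, *spi1b*, the main PU.1 gene of zebrafish, had the smallest adjusted p of the list. It had 100, 116, 72.5 and 75.4 normalized counts in WT controls and 116 to 212, median 164, in *dmd* controls, with 7 of 8 mutant libraries above the highest WT library (log2 fold change 0.80 ± 0.148, adjusted p = 0.00167). The second PU.1 gene, *spi1a*, had a log2 fold change of 0.33 ± 0.148 (adjusted p = 0.192). *irf8*, which steers progenitors to macrophages rather than neutrophils, had 130 ± 14.1 in WT controls and a median of 107 in *dmd* controls, with *dmd* control 1 at 294 (log2 fold change -0.03 ± 0.307, adjusted p = 0.968). *cebpa* and *cebpb* were not called either, at 0.08 ± 0.301 (adjusted p = 0.910) and -0.49 ± 0.351 (adjusted p = 0.444).

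None of the 6 neutrophil genes of the list was called with all libraries and no further term. *EPX* ENSDARG00000019521, which may be *mpx* and is not among the 6, was not called either (log2 fold change 0.52 ± 0.593, adjusted p = 0.655). *lyz* had 218, 190, 192 and 239 normalized counts in WT controls and 184 to 379, median 310, in *dmd* controls. *dmd* control 1 was the lowest of these libraries and the other 7 mutant controls lay above every WT control. Its log2 fold change of 0.52 ± 0.189 (adjusted p = 0.1) was under the fold threshold. It was called with the clock division as a term (0.66, adjusted p = 0.0806) and with no minimum fold change. It was also called among libraries with a positive clock score alone (0.63, adjusted p = 0.0279). The same held without *dmd* control 1 (0.60, adjusted p = 0.0379) and without WT control 1 and *dmd* control 1 (0.62, adjusted p = 0.0877). *dmd* control 1 has a negative clock score, so the last 3 settings all lack it. No other setting called *lyz*. *csf3r* had a log2 fold change of 0.32 ± 0.154 (adjusted p = 0.224). Of the NADPH oxidase genes, the regulatory subunit *ncf4* (p40phox) had 65.7, 51.8, 63.3 and 77.2 against 78.9 to 121, median 95.2. These groups did not overlap, but the log2 fold change of 0.56 ± 0.148 (adjusted p = 0.0231) was under the fold threshold. The catalytic subunit *cybb* (0.27 ± 0.227), its partner *cyba* (-0.05 ± 0.187) and the organizer *ncf1* (-0.56 ± 0.340) had adjusted p-values between 0.351 and 0.899.

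**Figure D2:**
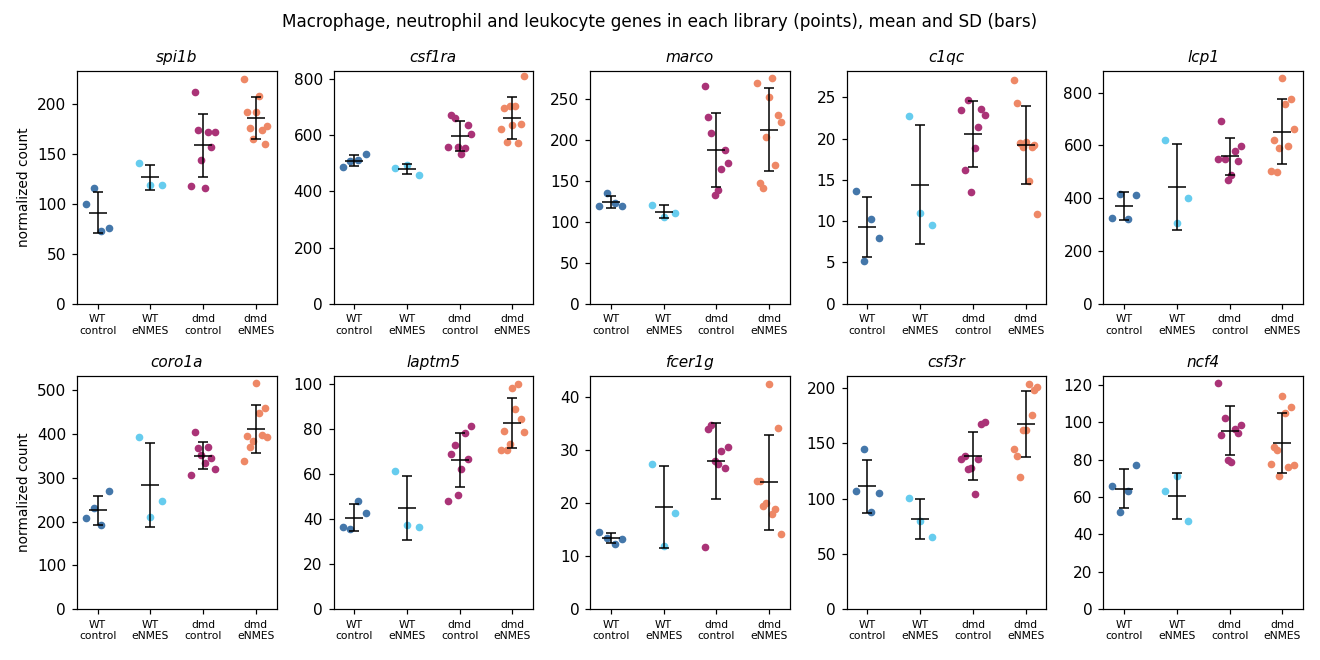
Normalized counts per library (points) with mean and SD (bars) for 10 genes in the 4 groups, with libraries in replicate order. In *coro1a*, *lcp1*, *csf1ra* and *ncf4* the 8 *dmd* controls sit above all 4 WT controls, and in *fcer1g* a single *dmd* control, at 11.7, lies with the WT controls.

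Some of these calls were lost without a single WT control, with little change in the fold. Without WT control 1, 4 of the 42 genes were called (*c1qc*, *spi1b*, *laptm5* and *fcer1g*). The 5 calls lost had log2 fold changes of 0.80 for *MPEG1* ENSDARG00000055290 (adjusted p = 0.104), 0.75 for *MFAP4* ENSDARG00000090783 (0.174), 0.70 for *csf1rb* (0.147), 0.54 for *lcp1* (0.111) and 0.59 for *coro1a* (0.026, now under the fold threshold). Without WT control 3, 5 were called (*c1qc*, *spi1b*, *laptm5*, *fcer1g* and *csf1rb*), and the 4 lost had log2 fold changes of 0.54 to 0.82. *csf1rb* was also lost without WT control 2 (0.70, adjusted p = 0.135) or WT control 4 (0.73, adjusted p = 0.117). The count stayed at 9 there because another gene was gained. *MFAP4* ENSDARG00000090783 was also lost without *dmd* control 2, 3, 7 or 8 (adjusted p = 0.101 to 0.111). Without *dmd* control 2, *coro1a* (0.60) and *lcp1* (0.55) did not exceed the fold threshold. Leaving out *dmd* control 1 gave 13 calls, 9 higher and 4 lower. Without that library *lyz* was called higher (0.60, adjusted p = 0.0379) and *MFAP4* ENSDARG00000090783 was no longer called (adjusted p = 0.107). The 4 lower genes were *MFAP4* ENSDARG00000090557, *cebpb* (-0.84, adjusted p = 0.0734) and the cytokine genes *tnfb* (-1.65, adjusted p = 0.0193) and *il34* (-0.71, adjusted p = 0.0847). With the clock division as a term 9 genes were called, all higher, but *MPEG1* ENSDARG00000055290 was lost (0.77, adjusted p = 0.119) and *lyz* was gained. In settings chosen after the values were seen, 10 genes were called among libraries with a positive clock score alone, all higher, and 10 without WT control 1 and *dmd* control 1, 9 higher and 1 lower. Exact permutation tests, two-sided, over the 12 control libraries gave p = 0.00202 for *coro1a*, *lcp1* and *ncf4*, the smallest value that 4 against 8 libraries allow, and p = 0.00404 for *spi1b*, *laptm5*, *c1qc* and *MPEG1* ENSDARG00000055290.

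The same genotype comparison in larvae that had completed eNMES shares no library with the comparison of controls. Of the 42 genes, 5 were called higher in *dmd* mutants and 0 lower, against 3.00% of all genes called higher and 0.941% called lower. These were *marco*, *csf3r*, *spi1a*, *ptprc* and *laptm5*. In all, 36 of the 42 genes had a log2 fold change above 0, beside 50.4% of all genes, and their median was 0.54, beside 0.00217 for all genes. At an unadjusted p under 0.05 there were 13, all higher, beside 12.3% of all genes. The groups did not overlap in 8 of the 42 genes, all higher in mutants, beside 4.38% of all genes.

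*csf3r* had 101, 79.3 and 65.0 normalized counts in WT siblings with eNMES and 120 to 204, median 162, in *dmd* mutants with eNMES, and every mutant library lay above every WT library (log2 fold change 1.03 ± 0.177, adjusted p = 0.000659). *marco* had 121, 106 and 111 against 141 to 276, median 222, again without overlap (log2 fold change 0.92 ± 0.204, adjusted p = 0.0071). *laptm5* had 61.4, 37.1 and 36.3 against 70.7 to 99.9, median 78.8 (log2 fold change 0.86 ± 0.179, adjusted p = 0.00386). By role, 1 of 13 macrophage markers, 0 of 3 macrophage receptors and 1 of 5 neutrophil receptors were called. So were 1 of 5 transcription factors and 2 of 5 genes listed for all leukocytes. *lyz*, the oxidase genes and the cytokines were not called. Only 2 of the 5 neutrophil receptor genes had a log2 fold change above 0, and the median of the 5 was -0.08. *spi1a* had 130, 119 and 100 against 154 to 256, median 167 (log2 fold change 0.63 ± 0.164, adjusted p = 0.0183). *ptprc* had 232, 175 and 180 against 243 to 397, median 293 (log2 fold change 0.61 ± 0.134, adjusted p = 0.0057). *csf1ra*, *spi1b* and *ncf4* did not overlap between the groups either and had adjusted p-values of 0.00174, 0.0289 and 0.0365, at log2 fold changes of 0.47, 0.56 and 0.56 under the fold threshold. For each of these genes but *ncf4* the exact permutation p over 12 libraries was 0.00455, the smallest that 3 against 9 libraries allow, and for *ncf4* it was 0.00909.

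WT eNMES 1 stood above the other WT eNMES libraries in several leukocyte genes. It had 392 normalized counts of *coro1a* where the others had 210 and 248, 622 of *lcp1* where the others had 305 and 401, and 312 of *MPEG1* ENSDARG00000055290 where the others had 92.3 and 193. Without it, 11 of the 42 genes were called, all higher in *dmd* mutants, and without WT eNMES 3 only 3 were called (*marco*, *csf3r* and *laptm5*). With the clock division as a term 5 were called, without *ptprc* (0.58, adjusted p = 0.0108) and with *cebpa* (0.90, adjusted p = 0.057). With libraries of a negative clock score alone, a setting chosen after the values were seen, 4 genes were called higher: *marco*, *csf3r*, *laptm5* and *il1b* (0.84, adjusted p = 0.0674).

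**Figure D3:**
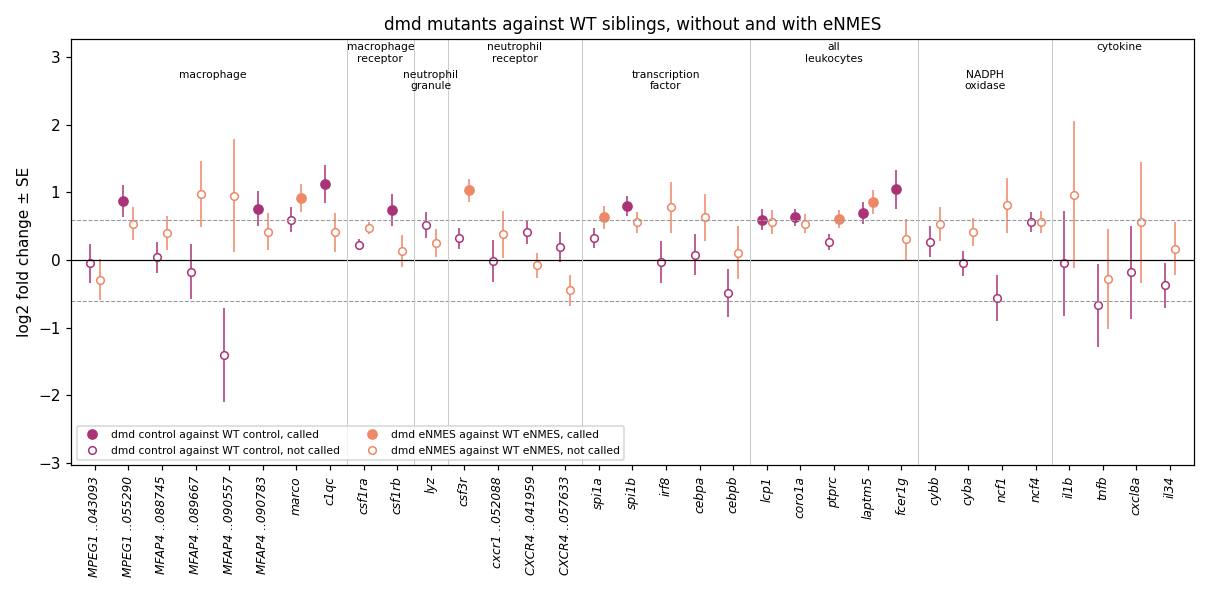
Log2 fold change ± SE of *dmd* mutants against WT siblings, in controls and after eNMES, for the 33 genes with a mean of at least 10 normalized counts; filled points were called and dashed lines mark 0.6. All filled points lie above 0, and *laptm5* is filled in both comparisons.

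Set side by side, the 9 genes called in controls all had log2 fold changes above 0 after eNMES, where 5 had an unadjusted p under 0.05 and 1 (*laptm5*) was called. The 5 genes called after eNMES all had log2 fold changes above 0 in controls. Of the 628 genes of any kind called higher in control mutants, 84.2% were above 0 after eNMES. The difference of the genotype effects between trained and untrained larvae was called for none of the 42 genes (1.85% of all genes). At an unadjusted p under 0.05, 3 of the 42 (7.14%) had a positive difference, beside 7.30% of all genes, a share near that of all genes. They were *csf3r* with a log2 difference of 0.71 ± 0.231 (adjusted p = 0.127), *ncf1* with 1.37 ± 0.528 (adjusted p = 0.22) and *MFAP4* ENSDARG00000090557 with 2.35 ± 1.11 (adjusted p = 0.335). In this test DESeq2 called *csf3r*, and so did edgeR without *dmd* control 7 or 8 or *dmd* eNMES 3 or 4 (adjusted p = 0.0780 to 0.0986). Without *dmd* control 1, *MFAP4* ENSDARG00000090557 (3.39, adjusted p = 0.0501) and *ncf1* (1.62, adjusted p = 0.0862) were called.

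Further phagocyte genes that were not on the list of 36 names were read from a second list. It was also chosen with earlier results of these data known, so its share of calls is not an independent check either. Of 35 tested, 7 were called higher in *dmd* controls and 0 lower, beside 2.43% and 0.693% of all genes, with a median log2 fold change of 0.31. They were *itgb2*, the beta chain of leukocyte integrins (1.07 ± 0.176, adjusted p = 0.000561), *FERMT3* ENSDARG00000079267, which activates integrins (0.86 ± 0.163, adjusted p = 0.00212), *ARPC1B*, a subunit of the Arp2/3 complex (0.74 ± 0.123, adjusted p = 0.000509), the cathepsin gene *ctss2.1* (1.09 ± 0.250, adjusted p = 0.0104), the neutrophil protease *npsn* (0.70 ± 0.244, adjusted p = 0.0887), *PLEK* (0.75 ± 0.257, adjusted p = 0.0792) and *havcr1* (0.65 ± 0.233, adjusted p = 0.0973). After eNMES 8 of the 35 were called higher in mutants and 0 lower, beside 3.00% and 0.941% of all genes, with a median of 0.48. In that comparison *WAS*, which links receptors to actin in blood cells, had a log2 fold change of 0.85 ± 0.140 (adjusted p = 0.000422). With eNMES, 1 of the 35 was called higher in *dmd* mutants, beside 0.0774% of all genes (*mhc2dab*, a class II antigen gene, 2.07 ± 0.469, adjusted p = 0.0706). *mhc2dab* was low, with 1.81 to 4.78 normalized counts in *dmd* controls and 1.94 to 25.7 after eNMES, and the groups overlapped. In WT siblings *cd68* was called higher (0.61 ± 0.201, adjusted p = 0.0961) and *MMP9* lower (-2.13 ± 0.662, adjusted p = 0.0827), beside 1.05% and 1.90% of all genes. *cd68* had 1640, 2278, 1565 and 2234 normalized counts in WT controls and 3930, 2252 and 2669 after eNMES, so these groups overlapped. *MMP9* had 5349, 1664, 2422 and 1509 against 447, 1029 and 406, without overlap.

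Markers of other cell types were read beside these genes. In control larvae none of the 13 T cell, 6 B cell, 7 erythrocyte, 7 thrombocyte, 5 mast cell or eosinophil, 7 endothelial and 7 epidermal genes tested was called, and 2 of 11 fast muscle genes (*TNNT3* ENSDARG00000030270 and *atp2a1*) were called higher. Over all genes 2.43% were called higher and 0.693% lower, so few calls would fall among so few genes at these shares. The absence of calls thus does not set these cell types apart from the phagocyte genes. Median log2 fold changes were 0.26 for T cell, 0.29 for erythrocyte and 0.48 for mast cell or eosinophil genes, beside 0.30 for the 42 genes. They were -0.23 for B cell, -0.16 for thrombocyte, -0.07 for endothelial, 0.03 for fast muscle and 0.07 for epidermal genes. The more abundant gene listed as *TNNT3*, ENSDARG00000068457, had 47370 to 52348 normalized counts in WT controls and 43349 to 55197 in *dmd* controls and was not called. The endothelial gene *TIE1* was under the fold threshold in *dmd* controls (0.58 ± 0.117, adjusted p = 0.00372). The summed level of the T cell genes was 52.8 to 55.6 TPM in WT controls and 48.2 to 62.2 TPM in *dmd* controls, that of the endothelial genes 49.0 to 50 against 44.3 to 53.0 TPM, that of the fast muscle genes 70937 to 78508 against 71265 to 85891 TPM, and that of the epidermal genes 5160 to 6175 against 5442 to 7125 TPM. The summed levels of B cell (5.25 to 6.42 against 3.76 to 7.06 TPM), erythrocyte (21.5 to 55.5 against 25.6 to 64.3 TPM), thrombocyte (82.5 to 95.7 against 59.9 to 88.1 TPM) and mast cell or eosinophil genes (21.6 to 32.3 against 19.6 to 44.9 TPM) overlapped too. Genes within a list were unequal in level, so a sum need not follow cell number. In WT controls the T cell list held *GATA3* with 1148 to 1284 normalized counts and *lck* with 16.9 to 17.6. The thrombocyte list held *THBS1* ENSDARG00000010785 with 4010 to 5051 and *gp9* with 5.11 to 12.8. The genes *cd8a* and *hbaa2*, and *ifng1* among the cytokine genes, were below the count minimum. Between the trained groups, 3.00% of all genes were called higher in mutants and 0.941% lower. After eNMES the mutants were higher than WT siblings in the B cell gene *blnk* (0.92 ± 0.179, adjusted p = 0.00228), the erythrocyte gene *alas2* (0.64 ± 0.189, adjusted p = 0.0378) and again *TNNT3* ENSDARG00000030270 and *atp2a1*, and lower in *EPX* ENSDARG00000019521 (-2.25 ± 0.565, adjusted p = 0.0189). Its place among mast cell and eosinophil markers rests on the listed symbol alone, since whether it is *mpx*, a neutrophil gene, was not settled. In WT siblings eNMES came with higher *EPX* ENSDARG00000019521 (2.61 ± 0.721, adjusted p = 0.0523) and higher *TIE1* of endothelium (0.68 ± 0.142, adjusted p = 0.0124), beside 1.05% of all genes called higher. WT eNMES 1 held 7255 normalized counts of *EPX* ENSDARG00000019521 where every other library had 257 to 1279. No marker of these cell types was called with eNMES in *dmd* mutants, beside 0.128% of all genes. The part of these cell types in the phagocyte genes was not tested.

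The comparison of *dmd* mutants with and without eNMES asked whether training changed phagocyte genes 3 days after the last session. With edgeR 0 of the 42 genes were called, beside 0.128% of all genes, and DESeq2 also called 0. At an unadjusted p under 0.05 there were 8 higher and 2 lower, beside 5.45% and 4.82% of all genes. The 8 were *spi1a*, *spi1b*, *csf1ra*, *csf3r*, *coro1a*, *laptm5*, *cyba* and *MFAP4* ENSDARG00000088745, with log2 fold changes of 0.15 to 0.46 and adjusted p-values of 0.313 to 0.479. The membrane subunit *cyba* had the smallest adjusted p among them, with 85.0 to 164, median 132, in *dmd* controls and 120 to 226, median 180, after eNMES (log2 fold change 0.40 ± 0.148). The 2 lower were *il1b* and *MFAP4* ENSDARG00000038683, which had at most 10.8 normalized counts in any library. The median log2 fold change was 0.10 over the 42 genes. For genes that were higher in *dmd* controls than in WT controls, the mean and SD of *dmd* controls can be set beside those of *dmd* eNMES libraries, for *coro1a* (350 ± 30.9 against 411 ± 53.9), *lcp1* (559 ± 69.7 against 652 ± 123), *spi1b* (158 ± 32.0 against 186 ± 20.7) and *c1qc* (20.6 ± 4.00 against 19.3 ± 4.71 normalized counts).

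In WT siblings eNMES and the clock division cannot be told apart, since all WT controls had a positive and all trained WT libraries a negative clock score. Of the 42 genes 1 was called, and it was higher after eNMES, beside 1.05% of all genes called higher and 1.90% called lower. *CXCR4* ENSDARG00000041959, which encodes a receptor for the chemokine Cxcl12, had 73.0, 42.5, 55.1 and 45.2 normalized counts in WT controls and 90.7, 82.3 and 84.2 after eNMES, without overlap (log2 fold change 0.66 ± 0.212, adjusted p = 0.0816). The exact permutation p was 0.0571, and 0.0286 is the smallest that 4 against 3 libraries allow. The call was lost without WT control 2, 3 or 4 and without any of the 3 trained libraries, with log2 fold changes of 0.57 to 0.69 and adjusted p-values of 0.137 to 0.240, and with the clock division as a term (0.53, adjusted p = 0.444). The other gene listed as *CXCR4*, ENSDARG00000057633, had 36.5, 30.1, 19.4 and 38.1 against 33.1, 48.2 and 52.6.

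In 2 of the 42 genes (*CXCR4* ENSDARG00000041959 and *spi1b*) the groups did not overlap and were higher after eNMES, beside 10.1% of all genes, and in 5 (*irf8*, *cebpb*, *il1b*, *tnfa* and *il34*), or 11.9%, they were lower, beside 10.2% of all genes, a share near that of all genes. *tnfa* was near the floor, with 3.65, 1.04, 4.08 and 3.55 normalized counts against 0, 1.00 and 0.957, so its separation carries little weight. *irf8* had 151, 124, 126 and 119 normalized counts in WT controls and 77.5, 46.2 and 48.8 after eNMES (log2 fold change -1.17 ± 0.414, adjusted p = 0.122; exact permutation p = 0.0286). All 3 trained libraries lay below all 4 controls. *ncf1* had 1076, 448, 457 and 339 against 341, 231 and 182 (log2 fold change -1.21 ± 0.451, adjusted p = 0.151), where the highest trained library lay just above the lowest control. *cebpb* had 2062, 898, 1584 and 966 against 834, 822 and 548 (log2 fold change -0.91 ± 0.457, adjusted p = 0.312). The counts of calls here depended on the setting: without *dmd* control 1 *irf8* (adjusted p = 0.0288), *ncf1* (0.0911), *il1b* (0.0889) and *il34* (0.0823) were called lower beside *CXCR4*, and DESeq2 called *irf8*, *ncf1* and *il1b* lower. Without WT control 3 or 4, or WT eNMES 1 or 3, none of the 42 was called, and without WT control 2 or WT eNMES 2 a different gene was called (*spi1b* and *MPEG1* ENSDARG00000055290).

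**Figure D4:**
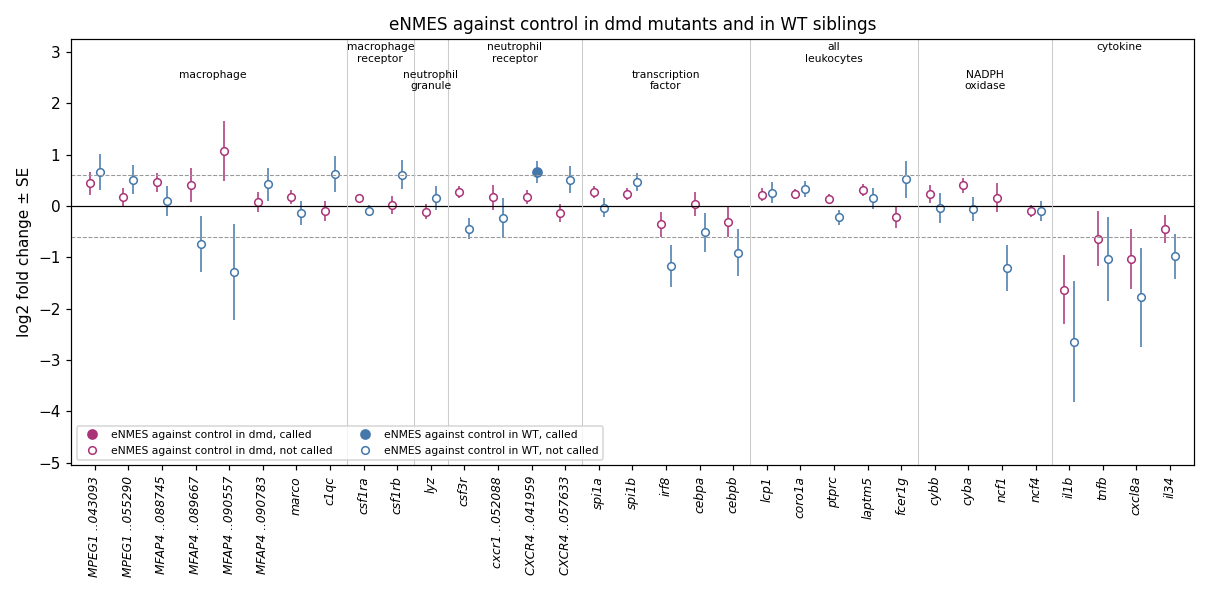
Log2 fold change ± SE of eNMES against control in *dmd* mutants and in WT siblings for the same 33 genes; filled points were called and dashed lines mark 0.6. *CXCR4* ENSDARG00000041959 in WT siblings is the single filled point, and the 4 cytokines lie below 0 in both genotypes, of which *tnfb* in *dmd* mutants was at 0.34 without WT control 1 and *dmd* control 1.

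A few libraries stood apart in the cytokines. *il1b*, the main inflammatory cytokine of the list, had 451, 121, 249 and 127 normalized counts in WT controls, 35.9, 52.2 and 25.8 in WT eNMES libraries, 33.4 to 1106, median 51.4, in *dmd* controls and 38.1 to 162, median 64.3, in *dmd* eNMES libraries. The high *dmd* controls were 1 (1106) and 2 (414), and the other 6 had at most 76.9. *cxcl8a*, the chemokine that draws neutrophils, had 318, 38.4, 119 and 59.4 in WT controls, 34.0, 43.1 and 40.2 in WT eNMES libraries, 26.7 to 467, median 46.3, in *dmd* controls and 27.5 to 93.6, median 47.6, in *dmd* eNMES libraries. The same libraries led again. *tnfb* reached 238 in *dmd* control 1 and 170 in WT control 1, and its medians were 69.3, 38.1, 21.7 and 31 in WT controls, WT eNMES, *dmd* controls and *dmd* eNMES libraries.

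*il34*, a second ligand of the Csf1 receptor made by many tissues, was highest in *dmd* control 1 (333) and WT control 1 (307), with group medians of 139, 96.4, 107 and 100 in the same order. *tnfa* had 31.6 normalized counts in *dmd* control 1 and at most 7.30 elsewhere, and *il10* had at most 8.92 in any library. *dmd* control 1 ranked first of 24 libraries in *il1b*, *tnfa*, *tnfb*, *cxcl8a* and *il34* and second in *il10*. WT control 1 ranked second in *il1b*, *tnfb*, *cxcl8a* and *il34*. In the edgeR fit of all libraries, none of the 6 cytokines was called in any of the comparisons or in the difference of the eNMES effects; without *dmd* control 1, *tnfb* and *il34* were called lower in *dmd* than in WT controls and *il1b* and *il34* lower after eNMES in WT siblings, and DESeq2 with all libraries also called *il1b* there. In *dmd* mutants the log2 fold change of *il1b* with eNMES was -1.63 ± 0.667 (adjusted p = 0.386; exact permutation p = 0.486), and without *dmd* control 1 and WT control 1 it was -0.49 (adjusted p = 0.818). Within the libraries of negative clock score it was -2.31 (adjusted p = 0.845) and within those of positive score 0.66 (adjusted p = 0.891), so the direction turned. In WT siblings it was -2.64 ± 1.17 (adjusted p = 0.236), with all 3 trained libraries below all 4 controls (exact permutation p = 0.0286). Between *dmd* and WT controls it was -0.05 ± 0.780 (adjusted p = 0.985).

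**Figure D5:**
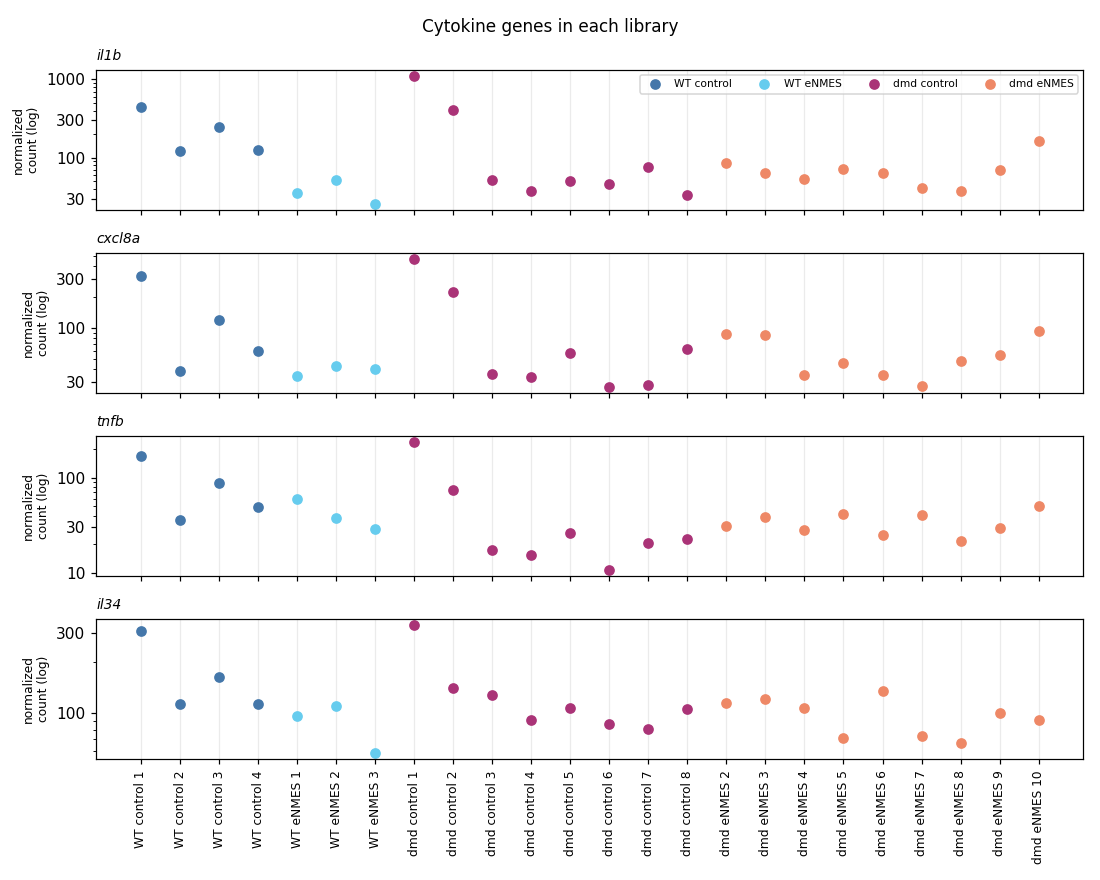
Normalized counts on log axes of 4 cytokine genes in each of the 24 libraries, colored by group. *dmd* control 1 is highest in all 4 panels and WT control 1 is second in all 4.

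Other inflammatory genes were high in the same libraries. *nfkbiaa*, the inhibitor that NF-kB induces, had 2977 normalized counts in *dmd* control 1 and 2765 in WT control 1, where the next library had 1726. *MMP9*, a secreted protease, had 5349 in WT control 1 and 4510 in *dmd* control 1, where the next had 2548, and the chemokine gene *cxcl18b* had 2298 in *dmd* control 1 and 1791 in WT control 1, where the next had 842. Of 44 further cytokine and signalling genes tested, 1 was called lower in *dmd* controls than in WT controls (*il11a*, -2.71 ± 0.815, adjusted p = 0.0467), beside 0.693% of all genes, with 42.9 normalized counts in WT control 1 and at most 9.93 in any other library. With eNMES, 1 of the 44 was called higher in *dmd* mutants (*NOS2* ENSDARG00000026925, 1.76 ± 0.425, adjusted p = 0.0897), beside 0.0774% of all genes, and 2 were called lower in WT siblings (*nfkbiab*, -1.67 ± 0.454, adjusted p = 0.0484, and *cxcl11.1*, adjusted p = 0.0963), beside 1.90% of all genes. *NOS2* ENSDARG00000026925 was low, with 2.14 to 11.3 normalized counts in *dmd* controls and 5.34 to 52.3 after eNMES, and the groups overlapped. The other gene listed as *NOS2*, ENSDARG00000031976, had 4.14 to 18.2 against 9.81 to 21.4 and was not called. *cxcl11.1* had 25.6, 1.04, 10.2 and 2.66 normalized counts in WT controls and 0 in all 3 trained WT libraries. *dmd* control 1 was at the same time the lowest *dmd* control in *fcer1g* (11.7), *laptm5* (47.9), *csf1rb* (23.5) and *lyz* (184), and the highest in *marco* (266) and *irf8* (294).

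Across libraries, 6 pairs of genes were set against each other after the mean of each group was removed (log2 of normalized count plus 1, n = 24). Of 10 pairs planned, these were the ones whose names each led to a single identifier. With other sets of libraries and values before removal of group means, 24 Pearson and 24 Spearman correlations were computed. Adjusted p-values cover the 24 of each measure. *lcp1* and *coro1a* had the closest relation, with Pearson's r = 0.885 (permutation p = 1e-05, the smallest that 100000 permutations give, adjusted p = 8e-05) and Spearman's rho = 0.797 (permutation p = 3e-05, adjusted p = 0.00036). Without the 2 libraries farthest from the median of *lcp1*, r was 0.816, and it was 0.782 among the 11 libraries with a positive clock score and 0.92 among the 13 with a negative one. *il1b* and *cxcl8a* had r = 0.873 (permutation p = 2e-05, adjusted p = 0.00012) and rho = 0.764 (permutation p = 5e-05, adjusted p = 0.0004). Without the 2 farthest libraries r was 0.729, and within the positive and the negative libraries it was 0.751 and 0.935. Without the 2 farthest libraries of each set, these fell to 0.331 and 0.673. Among the positive libraries rho was 0.655 (permutation p = 0.0333, adjusted p = 0.0666). *cybb* and *ncf1*, 2 subunits of the same oxidase, had r = 0.560 (permutation p = 0.00432, adjusted p = 0.0148) and rho = 0.545 (permutation p = 0.00665, adjusted p = 0.0222). Their r was 0.53 without the 2 farthest libraries, 0.71 among negative libraries and 0.251 among positive libraries (permutation p = 0.445, adjusted p = 0.594), so it did not hold within both sets. *spi1b* and *irf8* had r = 0.124 (permutation p = 0.565, adjusted p = 0.678) and rho = 0.314 (permutation p = 0.137, adjusted p = 0.221). The C1q chains had r = 0.363 for *c1qa* and *c1qb* and 0.224 for *c1qa* and *c1qc*, with permutation p-values of 0.0822 and 0.291 (adjusted p = 0.132 and 0.411) and rho of 0.306 and 0.0157.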

How the data were processed

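PolyA+ RNA of 2 pooled larvae per library was sequenced as stranded paired-end reads. The authors trimmed reads with Trimmomatic and estimated abundances with RSEM 1.2.31 and Bowtie 1.1.2 on Ensembl 95 (GRCz11). The deposited files hold RSEM's estimated counts (expected counts), 32.59% to 45.34% of the genes with a count not whole, since reads that fit several genes are shared among them. The deposited files also hold TPM from the authors' RSEM run, used here only to compare levels between genes.

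Of 25 labelled libraries 24 were examined. Expected counts were rounded, genes with fewer than 10 summed counts were left out (25832 of 32520 were tested), and all 4 groups were fitted together with edgeR 4.0.16 (TMM, quasi-likelihood, robust; R 4.3.3). The adjusted p-values are Benjamini-Hochberg values of this test unless another is named. Exact permutation tests, two-sided, used log2(normalized count + 1). No test corrected for tissue makeup, and nothing states that larvae of different libraries came from separate clutches, so p-values measure the spread between libraries. The members and lists were chosen with earlier results of these data known. Every member could be named. Of the other lists, genes called in a comparison could be named, and any others were chosen after their values were seen. Symbols came from the reference's gene name table. Alternatives were DESeq2 1.42.0, its size factors, other count filters, 2-group fits, a replicate block, a clock term, other thresholds and leaving out each library. The steps were tested on simulated data.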

Additional observations from a re-analysis of the deposited data

Results flagged for a closer look

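Within each group of 4 to 10 libraries, the highest and the lowest value of each gene with a mean of at least 10 normalized counts was compared with its nearest neighbour by Dixon's ratio. This set apart 15 values in 99 groups of values, in 7 libraries. The chance rate of the ratio, about 1 in 20, assumes independent and normally distributed values. Counts of genes that vary together do not meet this, so no excess over that rate can be read.

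Of the values set apart, *dmd* control 1 held 9. It was the high one of the 8 *dmd* controls in *il1b* (1106 normalized counts, others 33.4 to 414), *tnfb* (238, others 10.7 to 73.8), *cxcl8a* (467, others 26.7 to 223), *il34* (333, others 81.0 to 142), *irf8* (294, others 65.2 to 143), *cebpb* (2423, others 539 to 1237), *cxcr1* ENSDARG00000052088 (76.8, others 15.5 to 43.8) and *MFAP4* ENSDARG00000090557 (1555, others 72.7 to 240). It was the low one in *fcer1g* (11.7, others 26.7 to 34.8).

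The other values lay in 6 libraries. WT control 1 had 1076 normalized counts of *ncf1* (others 339 to 457) and WT control 4 had 190 of *MPEG1* ENSDARG00000055290 (others 121 to 125). *dmd* control 4 had 17.6 of *CXCR4* ENSDARG00000057633, below the others (34.2 to 42.1). Among *dmd* eNMES libraries, replicate 6 had 1282 of *cebpb* (others 581 to 872), replicate 7 had 256 of *spi1a* (others 154 to 204) and replicate 10 had 162 of *il1b* (others 38.1 to 87.1).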

How the results depend on the processing

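No gene of the list called with all libraries changed direction under any alternative. Of the 210 estimates (42 genes in 5 tests), 54 crossed 0 when single libraries were left out, none of them called, among them, between *dmd* and WT controls, *il1b* (-1.19 to 0.47), *cxcl8a* (-0.98 to 0.71) and *tnfa* (-0.31 to 1.16). The estimate of *il34* ran from -0.71 to 0.05 between *dmd* and WT controls (0.05 without WT control 1) and from -0.05 to 0.36 between trained groups (-0.05 without WT eNMES 3). Genes of the list called in the comparison of controls numbered 6 to 13 under the other models and thresholds, and 4 to 13 when single libraries were left out, beside 491 to 967 genes of any kind (807 with all). With eNMES in *dmd* mutants 0 were called when single libraries were left out (0 to 0), beside 14 to 59 genes of any kind (33 with all). With eNMES in WT siblings the ranges were 0 to 5 and 259 to 813, between trained groups 3 to 11 and 509 to 1121, and for the difference of effects 0 to 2 and 47 to 758. The clock term gave 435 genes of any kind in controls, 77 with eNMES in WT siblings and 17 for the difference of effects, with 0 genes of the list in WT siblings. At an adjusted p under 0.05 there were 517 in controls, 15 with eNMES in *dmd*, 423 in WT siblings (0 of the list), 675 between trained groups and 186 for the difference of effects, and with no minimum fold 2805, 107, 1675, 3181 (10 of the list) and 725. DESeq2 called 81 with eNMES in *dmd* mutants, 794 for the difference of effects with 1 of the list, and 4 of the list in WT siblings, where a fit of the 2 groups alone called 3. Without WT control 1 and *dmd* control 1 there were 521 in controls, 405 in WT siblings (2 of the list) and 200 for the difference of effects. Positive clock scores alone gave 345 in controls, and negative ones 3 with eNMES in *dmd*. The cause was not tested.

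Libraries with the same replicate number had correlations of deviations from -0.142 to 0.26. Pairs with different numbers were not set beside them, so whether the numbers pair the libraries cannot be read from these values. A replicate block gave 1325 genes in controls, 6 of them of the list, 765 for the difference of effects with 3 of the list, 5 of the list with eNMES in WT siblings and 9 between trained groups.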

Other observations

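*cebpa*, a transcription factor of granulocytes that the liver also uses, divided the mutant libraries in another way. *dmd* controls 4 and 5 had 1091 and 1268 normalized counts and *dmd* eNMES 4, 5 and 6 had 1328, 1096 and 1318, while the other mutant libraries had 519 to 894. Those 5 libraries were also the mutant libraries with clock scores between -0.677 and -1.11, nearest to 0. This division was noticed after the values were seen and was not tested.

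WT eNMES 1 differed from the other trained WT libraries in single genes. It had 7255 normalized counts of *EPX* ENSDARG00000019521, where the other WT eNMES libraries had 339 and 478, 361 of the neutrophil protease *npsn*, where they had 212 and 249, and 208 of *itgb2*, where they had 141 and 143. Of *lyz* it had 261, where they had 191 and 251, and it was the lowest of the 3 in *cxcr1* ENSDARG00000052088 (19.8, others 38.1 and 25.8) and *CXCR4* ENSDARG00000057633 (33.1, others 48.2 and 52.6). These genes were named after their values were seen, and this library was not tested against the others.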
